A study of Mus musculus with 8 samples.

Results

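Among 40603 B cells with 1 heavy and 1 light chain, 324 had switched to an IgG constant gene while their heavy-chain V segment (IGHV) still carried no nucleotide difference from germline. A cell was counted here when its barcode held exactly 1 heavy and 1 light contig, its constant gene was IGHG1, IGHG2B, IGHG2C or IGHG3, and its joined framework 1 to framework 3 sequence equalled the germline of its V gene. Germline meant the most common sequence of that V gene over all 8 libraries, where the gene had 20 or more different CDR3 sequences. The cells were thus chosen by 2 measured values, the heavy V sequence and the constant gene, and their absence of IGHV mutation is a definition rather than a result. Of the 2825 switched cells whose IGHV gene had a germline, 324 were at 0 differences, 434 were just outside the limit at 1 difference, and 576 were at 2. The labels call all cells germinal-centre B cells from mouse spleen, 10 days after immunization. The Dtx1-/- group (KO) has 4 libraries and 229 of the cells, and the Dtx1+/+ group (WT) has 4 libraries and 95 of them. Dtx1 encodes Deltex-1, an E3 ubiquitin ligase linked to Notch signalling. Immunogen, strain, age and the number of mice behind a library are not stated in the labels.

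In germinal centres, activation-induced deaminase acts on the V segments of the heavy and light chains, where it leads to somatic hypermutation, and on the switch regions before the constant genes, where it leads to class switching from IgM to IgG, IgE or IgA. Hypermutation is concentrated in germinal centres, whereas class switching can also start before a B cell enters one. The light chain of a cell is rearranged and mutated separately from its heavy chain, so its sequence is a readout that the choice of these cells did not use.

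The deposited tables held 104649 contigs, with 11666 to 14732 contigs and 754954 to 1155339 UMIs (unique molecular identifiers, each marking 1 captured transcript) per library. The cells numbered 61, 53, 55 and 60 in the KO libraries and 20, 26, 28 and 21 in the WT libraries, so a share in a WT library rests on few cells. The libraries of a genotype held parts of the same clones, a clone being cells of 1 genotype with the same V and J genes in both chains and similar heavy CDR3 sequences. Of the 210 unmutated switched cells with another cell in their clone, 196 had one in another library, and 2 of all 324 shared their V genes and heavy CDR3 with a cell of the other genotype. Because the labels do not say that libraries come from separate mice, p-values below measure the spread between libraries, which may be loadings of shared cells. Of 51304 barcodes 1671 occurred in more than 1 library. Of the unmutated switched cells 19 had such a barcode, and 0 of these had the same heavy CDR3 in the other library.

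Sequences of individual clones are shown first because they display what the V segment of the heavy chain does not. The clone with most unmutated switched cells, in KO, joined IGHV1-12 (chr12:114615850-114616143, mm10) to IGKV8-28 (chr6:70143593-70144161). It held 15 IgG1 cells in 4 libraries, of which 6 had a germline IGHV and 9 had 1 to 4 IGHV differences. The 15 cells had 10 different IGHV sequences: the germline and 9 mutated ones. The heavy CDR3 is given 5′ to 3′ in lower case, with capitals at bases that differ from the commonest sequence of the clone.
IGHV1-12/IGKV8-28, 5 unmutated and 8 mutated cells: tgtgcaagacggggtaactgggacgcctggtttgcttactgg
IGHV1-12/IGKV8-28, 1 unmutated cell: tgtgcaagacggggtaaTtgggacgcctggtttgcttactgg
IGHV1-12/IGKV8-28, 1 mutated cell: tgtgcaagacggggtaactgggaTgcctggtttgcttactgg
Of the 6 cells with a germline IGHV, 5 had a germline IGKV8-28 segment and 1 carried the light-chain difference G248A. Positions are counted from 1 at the first base of framework 1, with the germline base before the position and the base of the cell after it. The mutated sisters carried differences such as C31T, which occurred in 2 of them, and G109A, both in IGHV.

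The KO clone of IGHV1-55 (chr12:115208137-115208527) and IGKV8-24 (chr6:70216858-70217421) shows a light chain that changed while the heavy V segment did not. It held 3 unmutated and 7 mutated IgG1 cells, and none of the 3 had a germline light V segment. The germline IGKV8-24 segment is printed with capitals at the 7 positions where at least 1 of these 3 cells differed.
IGKV8-24 germline: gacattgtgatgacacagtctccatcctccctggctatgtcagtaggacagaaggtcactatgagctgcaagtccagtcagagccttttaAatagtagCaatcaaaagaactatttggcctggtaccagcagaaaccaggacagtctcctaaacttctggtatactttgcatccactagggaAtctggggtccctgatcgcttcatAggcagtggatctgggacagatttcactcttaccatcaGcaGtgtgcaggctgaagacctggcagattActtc
The cell from KO replicate 1 carried A91C, G245T and G248A. The cell from KO replicate 3 carried C99G and A275T. The cell from KO replicate 4 carried A183T and A207G. No light-chain difference was shared between these 3 cells. Their heavy CDR3 sequences also differed, with capitals again marking departures from the commonest sequence of the clone.
IGHV1-55/IGKV8-24, 1 unmutated and 2 mutated cells: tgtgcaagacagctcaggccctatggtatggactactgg
IGHV1-55/IGKV8-24, 1 unmutated cell: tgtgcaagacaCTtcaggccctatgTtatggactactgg
IGHV1-55/IGKV8-24, another unmutated cell: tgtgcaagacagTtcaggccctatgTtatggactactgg
The clone had 6 different heavy CDR3 sequences in 10 cells, and whether they come from 1 rearrangement or from several similar ones cannot be told apart by the clone rule.

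In 2 other KO clones, unmutated switched cells shared their heavy CDR3 exactly with mutated switched cells and nearly with an IgM cell. The clone of IGHV1-12 and IGLV1 (chr16:19085017-19085460) held 4 unmutated switched cells, 2 mutated switched cells and 1 IgM cell.
IGHV1-12/IGLV1, 4 unmutated and 2 mutated switched cells: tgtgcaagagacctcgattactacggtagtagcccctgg
IGHV1-12/IGLV1, 1 IgM cell: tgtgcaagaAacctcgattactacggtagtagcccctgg
One of the 4 carried the light-chain differences C83T, C89G, T129C and C140T beside its germline IGHV, and the other 3 had a germline IGLV1 segment. The IgM cell carried G189T in IGHV. The clone of IGHV1-42 (chr12:114937154-114937544) and IGKV8-27 (chr6:70171809-70172270) held 4 unmutated switched cells, 1 in each KO library.
IGHV1-42/IGKV8-27, 4 unmutated and 2 mutated switched cells: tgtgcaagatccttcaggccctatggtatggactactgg
IGHV1-42/IGKV8-27, 1 IgM cell: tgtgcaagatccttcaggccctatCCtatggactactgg
Of these 4 cells, 3 had a germline IGKV8-27 segment and 1 carried G248C.

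Across all libraries the light chains of the unmutated switched cells were mutated far more often than those of IgM cells with an equally unmutated IGHV, and at a rate whose difference from mutated switched cells did not pass the test. A light V germline was available for 308 of the 324 cells. Their light V segment was germline in 138 and mutated in 170. The share with a germline light V was 39, 60.4, 51.9 and 40.7% in the KO libraries and 31.6, 48.0, 44.0 and 18.8% in the WT libraries. Every one of these values lay below the shares among IgM cells without IGHV mutation, which ran between 96.8 and 97.5% in KO libraries and between 95.6 and 97.0% in WT libraries. The WT value of 18.8% was 3 of 16 cells, and the low and high libraries of the genotypes overlapped.

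Over the 8 libraries, the germline light V share averaged 41.8 ± 12.7% in unmutated switched cells and 96.9 ± 0.60% in unmutated IgM cells (SD, n = 8). The difference of -55.1 percentage points had the same sign in 8 of 8 libraries (exact two-sided sign-flip test within libraries, p = 0.00781, the smallest 8 libraries allow; adjusted p = 0.0156 over 8 measures, Benjamini-Hochberg). Light V mutation frequency averaged 0.505 ± 0.230% of nucleotides in unmutated switched cells, against 0.0258 ± 0.0095% in unmutated IgM cells, and was higher in 8 of 8 libraries (exact sign-flip p = 0.00781, adjusted p = 0.0156). Reweighting the IgM cells to the light V genes of the unmutated switched cells left their germline share at 96.7 ± 0.73%, and the difference at -54.9 points (exact sign-flip p = 0.00781). This reweighting was added after the data were seen.

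Set against mutated switched cells, the germline light V share was 41.8 ± 12.7% in unmutated switched cells and 37.8 ± 7.20% in mutated switched cells (SD, n = 8). The difference of 4.00 points ran from -11.4 to 17.6 points between libraries, was positive in 4 of 8 and did not pass the test (exact sign-flip p = 0.344). Light V mutation frequency was 0.505 ± 0.230% in unmutated and 0.530 ± 0.121% in mutated switched cells, a difference of -0.02 points that ran from -0.25 to 0.31 (exact sign-flip p = 0.695). These ranges hold differences of over 10 points of the germline share in either direction. IgM cells with a mutated IGHV had a germline light V in 42.3 ± 6.07%, so the unmutated switched cells differed from them by -0.49 points (exact sign-flip p = 0.906, a comparison added after the data were seen).

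**Figure D1:**
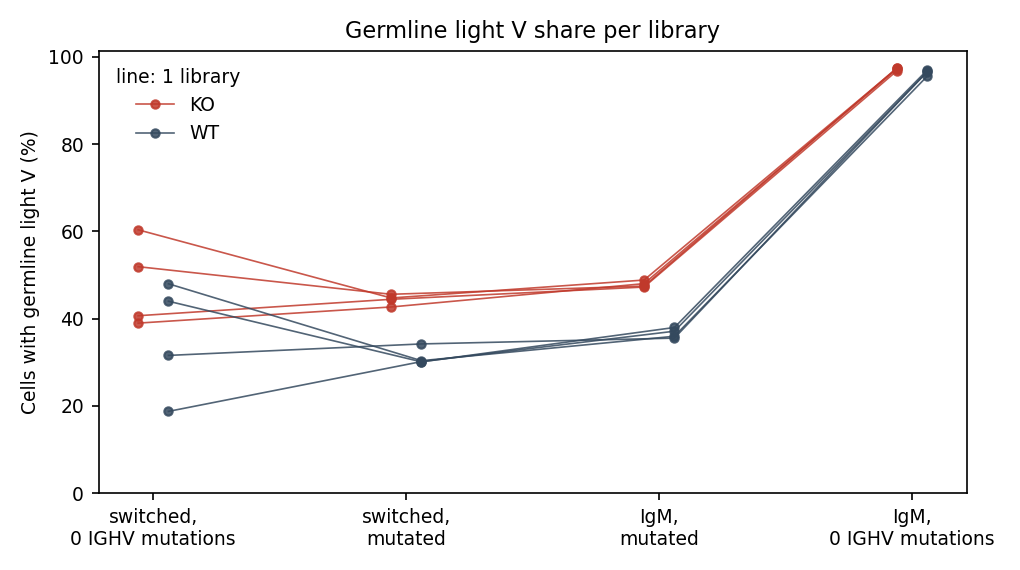
Each line is 1 library (KO red and drawn to the left, WT dark blue) and gives the percentage of cells with a germline light V segment in 4 cell sets, with the unmutated switched cells at the left. The unmutated switched cells of all 8 libraries lie between 18.8 and 60.4%, a wider range than the 30.1 to 45.6% of mutated switched cells and the 35.5 to 48.9% of mutated IgM cells, while IgM cells without IGHV mutation lie above 95%.

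Among IgM cells the germline light V share dropped steeply between 0 and 1 IGHV difference, and among IgG cells no drop of that size was seen. Among KO IgM cells the germline light V share was 97.3 ± 0.29% at 0 IGHV differences, 52.1 ± 4.17% at 1 and 49.1 ± 4.29% at 2, 48.5 ± 4.34% at 3, 45.5 ± 2.48% at 4 and 40.3 ± 1.12% at 5 or more (SD, n = 4). Among KO IgG cells the share was 48.0 ± 10.1% at 0, 48.4 ± 1.86% at 1, 40.1 ± 5.49% at 2, 48.6 ± 8.34% at 3, 46.7 ± 13.8% at 4 and 39.9 ± 4.43% at 5 or more. In WT libraries the IgM shares were 96.5 ± 0.61% at 0, 38.5 ± 1.58% at 1, 35.6 to 37.7% at 2 to 4 and 35.4 ± 2.14% at 5 or more. The WT IgG shares were 35.6 ± 13.2% at 0, 26.7 ± 4.80% at 1, 32.8 ± 6.21% at 2, 32.3 ± 4.22% at 3, 35.6 ± 6.17% at 4 and 29.0 ± 1.96% at 5 or more. The trend over steps was not tested; it is given as a description.

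**Figure D2:**
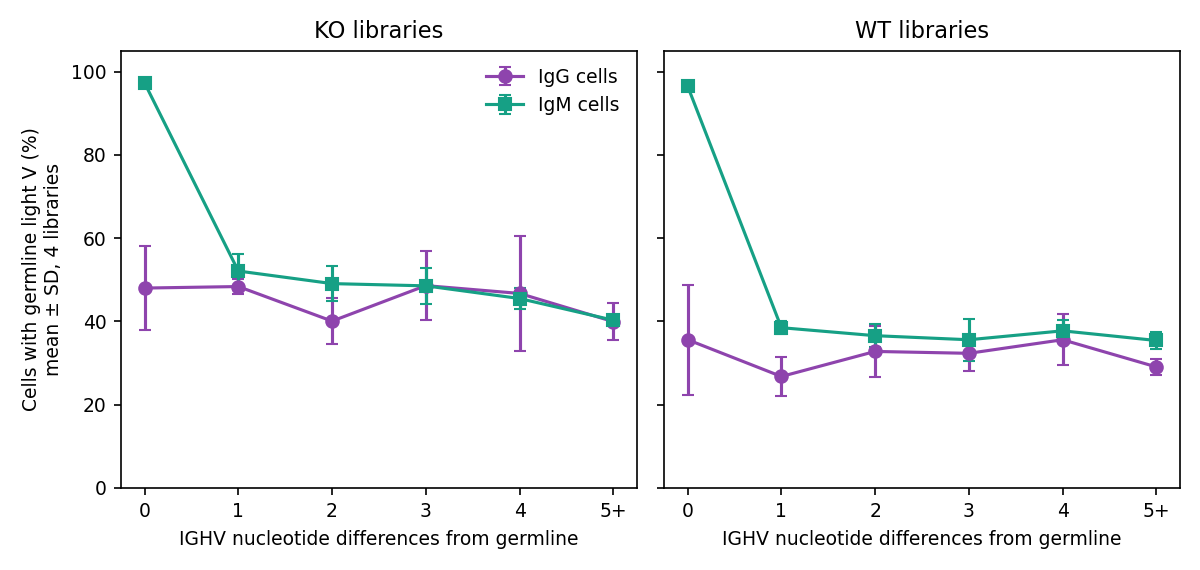
The x axis is the number of IGHV nucleotide differences from germline (5+ is 5 or more) and the y axis the percentage of cells with a germline light V segment, as the mean ± SD of 4 libraries, for IgG cells (circles) and IgM cells (squares) of KO libraries (left) and WT libraries (right). IgM cells start at 97.3% in KO and 96.5% in WT libraries and then drop, while IgG cells start at 48.0% in KO and 35.6% in WT libraries.

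The light chain differences in unmutated switched cells were few per cell. Among the 170 cells with a mutated light V, 76 had 1 difference and 93 had 2 or more, up to 7, and 1 had a segment of another length. The mean over the mutated light chains was 1.97 differences in KO cells and 2.51 in WT cells. Of 361 differences, 147 (40.7%) lay in CDR1 or CDR2, the loops that contact antigen, and 214 in the frameworks. Per base, the CDR rate was 2.37 times the framework rate in unmutated switched cells, and 2.14 times in mutated switched cells. Differences that change the amino acid made up 75.6% in unmutated and 71.5% in mutated switched cells. Of differences at C or G, 66.8% in unmutated and 67.6% in mutated switched cells lay in hotspot motifs of activation-induced deaminase. These 3 shares are pooled over cells and carry no test.

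The heavy chain of the unmutated switched cells was also examined outside the V segment. Framework 4, which the J gene encodes and which the choice of cells did not use, equalled its germline in 94.4 ± 4.16% of unmutated switched cells, against 90.4 ± 2.73% of mutated switched cells and 99.8 ± 0.09% of unmutated IgM cells (SD, n = 8). The share was lower than in unmutated IgM cells in 8 of 8 libraries (-5.38 points, exact sign-flip p = 0.00781, adjusted p = 0.0156), and the call was lost among cells of 20 to 40 heavy-chain UMIs (-4.02 points, exact sign-flip p = 0.125). Against mutated switched cells the difference of 3.95 points held in 7 of 8 libraries (exact sign-flip p = 0.0156) but did not pass after adjustment over 12 measures (adjusted p = 0.0938). Counting the light V segment and framework 4 of both chains together, 126 of 229 KO cells and 58 of 95 WT cells carried at least 1 difference outside IGHV. Per library that was 54.7 ± 7.55% in KO and 61.9 ± 7.91% in WT (exact permutation p = 0.2, chosen after the data were seen). A light V germline was available for 223 of the 229 KO and 85 of the 95 WT cells. Light V differences of the remaining cells were not counted, so their share is understated, and more so in WT.

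Heavy-chain transcript counts were lower in unmutated switched cells than in unmutated IgM cells. The median number of heavy-chain UMIs per unmutated switched cell was 22, 17, 18 and 16 in the KO libraries and 7, 20, 19.5 and 18 in the WT libraries. WT replicate 1 stands apart at 7, and 7 of its 20 cells (35%) had fewer than 5 heavy-chain UMIs. The mean of the 8 medians was 17.2 ± 4.52 in unmutated switched cells, 17.4 ± 2.97 in mutated switched cells and 32.4 ± 9.87 in unmutated IgM cells. The difference from unmutated IgM cells was -15.2 UMIs in 8 of 8 libraries (exact sign-flip p = 0.00781, adjusted p = 0.0156). The differences were -21, -24, -25 and -23 UMIs in the KO libraries and -15, -3, -3.5 and -7 in the WT libraries, without overlap, and this gap between genotypes was not tested. The medians of unmutated IgM cells were 43, 41, 43 and 39 in the KO libraries and 22, 23, 23 and 25 in the WT libraries. Those of unmutated switched cells averaged 18.3 ± 2.63 in KO and 16.1 ± 6.14 in WT (exact permutation p = 0.743). The mean over libraries was the same size without WT replicate 1 (-15.2 UMIs, exact sign-flip p = 0.0156), and the difference lost the call with each clone counted once (-11.9, exact sign-flip p = 0.0625). That from mutated switched cells was -0.19 UMIs, with a range over libraries of -8 to 7 (exact sign-flip p = 0.938). Light-chain medians were 92.3 ± 25 UMIs in unmutated switched cells and 67.3 ± 7.5 in unmutated IgM cells (25 higher, in 7 of 8 libraries, exact sign-flip p = 0.0234, adjusted p = 0.0312).

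**Figure D3:**
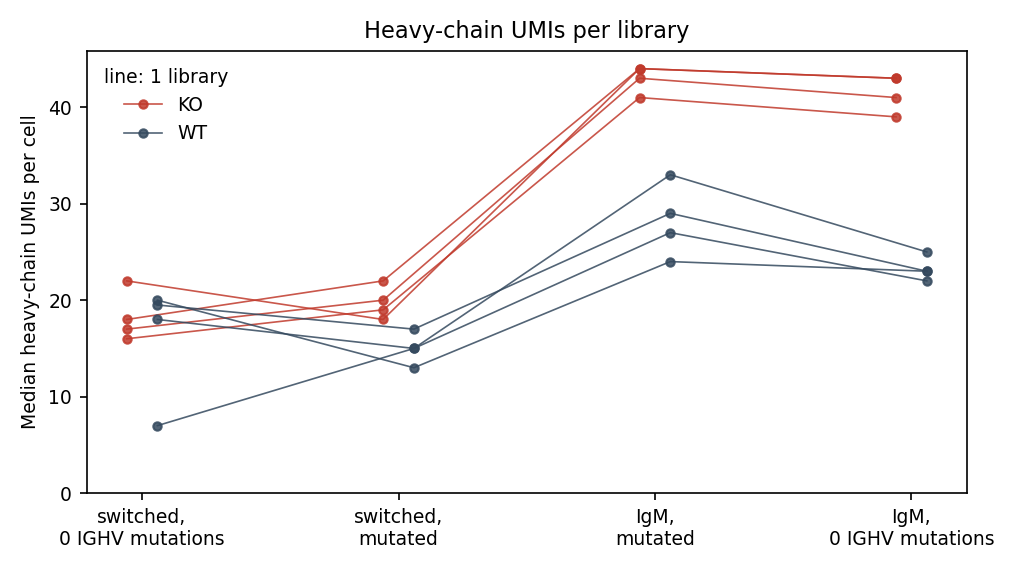
Each line is 1 library (KO red and drawn to the left, WT dark blue) and gives the median heavy-chain UMIs per cell in the same 4 cell sets. The switched sets lie between 7 and 22 UMIs and the IgM sets between 22 and 44, with WT replicate 1 lowest among the unmutated switched cells.

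The light-chain result was also read by heavy-chain UMIs, because a heavy contig from free RNA of another cell can pair with a cell's own light chain. In unmutated switched cells the germline light V share was 48.3% at 1 to 4 UMIs (14 of 29 cells, exact 95% interval 29.4 to 67.5%). It was 43.1% at 5 to 9, 50.6% at 10 to 19, 39.4% at 20 to 39 and 46.0% at 40 or more (23 of 50 cells, 31.8 to 60.7%). The bins of unmutated switched cells had overlapping intervals, and the bin of 40 or more UMIs was far below that of unmutated IgM cells. Unmutated IgM cells had 80.2% at 1 to 4 UMIs (970 cells) and 97.2 to 98.4% in the bins above. Intervals cover counting error only, over cells pooled from all libraries. Whether free RNA or doublets contributed to these pairs was not tested.

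KO libraries held a larger share of switched cells without IGHV mutations than WT libraries, at the smallest p the design allows but not after correction. The share was 15.5, 14.9, 14.2 and 18.9% in the KO libraries, against 6.01, 7.01, 8.36 and 6.29% in the WT libraries, and the libraries of the genotypes did not overlap. It averaged 15.9 ± 2.09% in KO and 6.91 ± 1.05% in WT (SD, n = 4 each), a difference of 8.98 points. The exact two-sided permutation p was 0.0286, the smallest that 4 against 4 libraries allow, and the value did not pass after adjustment over 15 measures (adjusted p = 0.0857). At this smallest p a difference of any size passes the adjustment only if enough other measures also have low p-values. The adjustment therefore cannot decide on this difference by itself. The same limit holds for every other adjusted comparison of KO with WT at an exact permutation p of 0.0286. In cells, 229 KO and 95 WT cells stood among 1452 KO and 1373 WT switched cells with a germline. Within IgG1, the commonest subclass, the share was 16.6 ± 2.83% in KO and 7.52 ± 2.72% in WT. Within IgG2b it was 15.0 ± 3.33% in KO and 7.62 ± 1.57% in WT. Both differences, 9.12 points for IgG1 and 7.40 points for IgG2b, had an exact permutation p of 0.0286 and an adjusted p of 0.0857. Within IgG3 it was 9.23 ± 4.96% in KO and 3.96 ± 2.02% in WT, and the libraries overlapped (exact permutation p = 0.0857). Among cells of 20 to 40 heavy-chain UMIs the IgG1 difference was 8.65 points (exact permutation p = 0.0857) and the IgG2b difference was -1.21 points, so the IgG2b direction turned. Other cells differed between genotypes in the same direction. Of IgM cells, 16706 KO and 11874 WT cells had no IGHV difference, and 3537 KO and 5125 WT cells had a mutated IGHV. Mutated switched cells had a germline light V in 42.7 to 45.6% in KO libraries and 30.1 to 34.2% in WT libraries. These genotype differences of other cells were not tested.

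**Figure D4:**
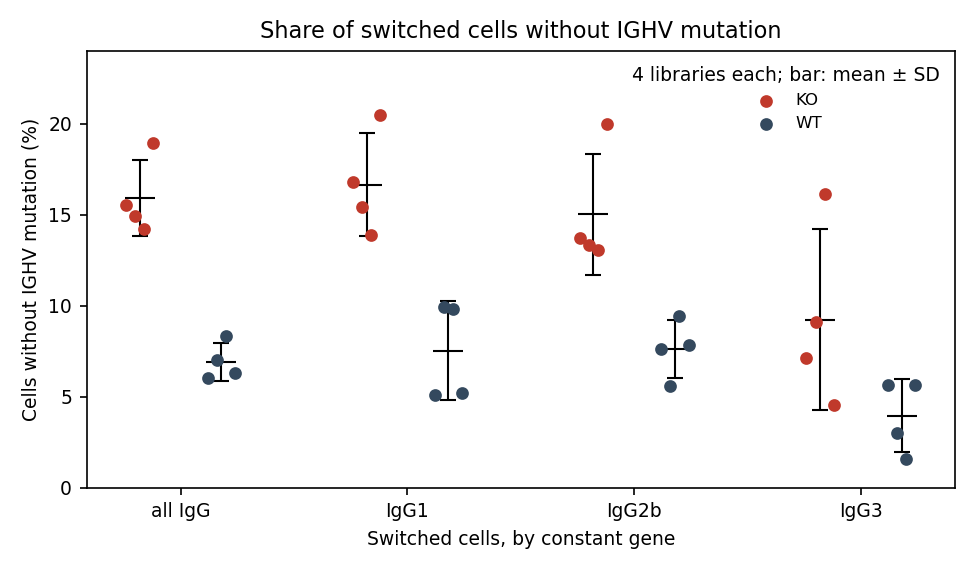
Points are libraries (KO red and left, WT dark blue and right), bars are the mean ± SD of 4 libraries, and the y axis is the percentage of switched cells without IGHV mutation among all IgG cells and within 3 subclasses. KO libraries lie above all WT libraries for all IgG, IgG1 and IgG2b, and overlap with them for IgG3.

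IgG1 made up a larger share of the unmutated switched cells in KO than in WT libraries and IgG2b a smaller one, with no overlap between libraries but without passing the correction. Mutated switched cells split between genotypes in the same direction. IGHG1 (chr12:113326541-113330523) was the constant gene of 52, 44, 42 and 51 cells in the KO libraries and of 8, 16, 15 and 8 cells in the WT libraries. That was 82.4 ± 4.15% of the cells in KO and 48.3 ± 11.2% in WT (exact permutation p = 0.0286, adjusted p = 0.0857). Among mutated switched cells it was used by 958 of 1223 KO and 577 of 1278 WT cells. Per library that was 77.0 to 79.8% in KO and 42.0 to 47.6% in WT. IGHG2B (chr12:113304314-113307933) made up 11.8 ± 1.08% in KO and 33.9 ± 4.86% in WT (exact permutation p = 0.0286, adjusted p = 0.0857). IGHG3 (chr12:113357442-113361232) was used by 10 KO and 11 WT cells, and IGHG2C by 3 KO and 5 WT cells. Within libraries, IGHG1 made up 65.4 ± 19.8% of unmutated and 61.8 ± 17.8% of mutated switched cells (exact sign-flip p = 0.305, difference from -8.23 to 19.5 points). IGHG3 made up 8.52 ± 7.22% of unmutated and 14 ± 6.93% of mutated switched cells. That difference of -5.52 points held in 7 of 8 libraries (exact sign-flip p = 0.0156) but did not pass after adjustment over 12 measures (adjusted p = 0.0938).

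The 324 cells fell into 273 clones. Of these cells, 114 (74 KO and 40 WT) had no other cell in their clone. Of the 210 with a clone mate, 133 shared their heavy CDR3 exactly with one, and the largest of these clones held 108 cells. The clone rule may join separate rearrangements, which also limits the counts of sisters that follow. At least 1 mutated switched cell stood in the clone of 155, and for 144 of them at least 1 such sister had the same subclass. IGHG1 was the constant gene of 958 of 1223 KO and 577 of 1278 WT mutated switched cells. Whether subclass sharing went beyond this background was not tested. An IgM cell stood in the clone of 115, of which 53 had an IgM sister that also lacked IGHV mutations. Both kinds of sister occurred for 83. Of 86 cells with a mutated light V and a mutated switched sister, 8 had a sister with an identical light V sequence. Of 66 with a mutated light V and an IgM sister, 1 had an IgM sister with the same light V sequence, and 43 of the 115 shared their heavy CDR3 with an IgM sister. In KO clones, 158 held 1 unmutated switched cell and the most in 1 clone was 6. In WT clones, 78 held 1 and the most was 3.

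**Figure D5:**
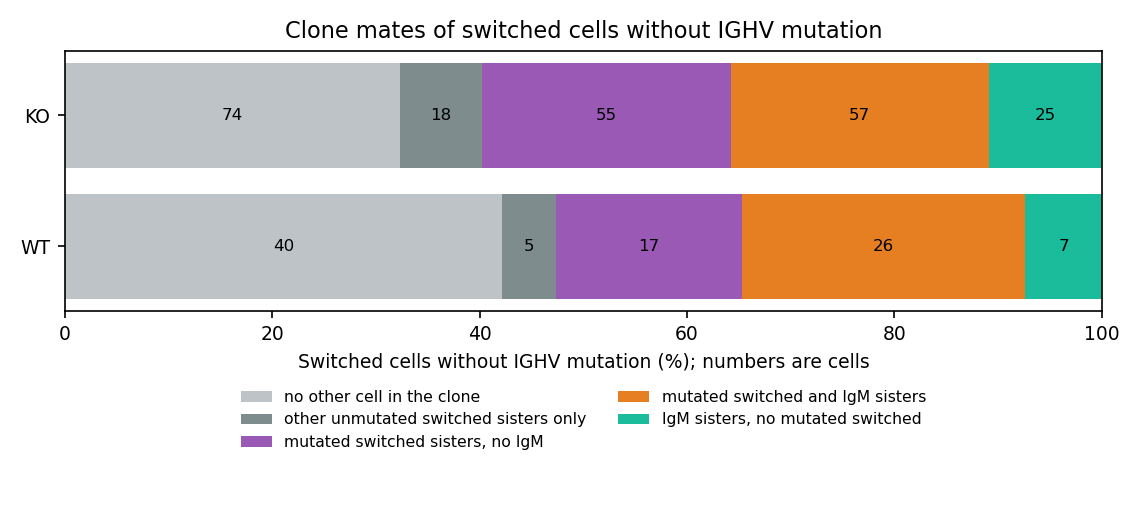
Bars give the percentage of unmutated switched cells by the other cells in their clone, KO above and WT below, and the printed numbers are cells. No other cell was found for 74 of 229 KO and 40 of 95 WT cells, and IgM or mutated switched sisters were found for the others except 18 KO and 5 WT cells.

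Clone membership was compared over all libraries. A share of 62.5 ± 11.3% of unmutated and 63.0 ± 4.17% of mutated switched cells lay in clones of 2 or more cells (exact sign-flip p = 0.93, difference from -25.5 to 9.74 points). Unmutated IgM cells lay in such clones in 73.6 ± 3.26%, 11.1 points more (exact sign-flip p = 0.0156, adjusted p = 0.025), but this reversed to 7.61 points in favour of the switched cells with each clone counted once. The share of unmutated switched cells with an IgM cell in the clone was 35.8 ± 2.80% in KO and 35.6 ± 17.6% in WT (exact permutation p = 1). WT replicate 4 stood apart at 61.9%, and without it the difference was 9.02 points (exact permutation p = 0.0286). A mutated switched cell was in the clone of 48.8 ± 2.49% in KO and 45.4 ± 10.1% in WT (exact permutation p = 0.543). Unmutated switched cells stood beside both mutated switched and IgM cells in 42 KO and 22 WT clones, and 2 of the WT clones are described. No light V germline was available for these 2 clones, so whether their light chains were mutated is not given. The clone of IGHV1-4 (chr12:114487136-114487429) and IGKV6-14 (chr6:70434952-70435476) held 2 IgG2b cells without IGHV mutation, 7 mutated switched cells and 1 IgM cell, with 9 heavy CDR3 sequences in 10 cells, so it may join separate rearrangements. Its 2 unmutated switched cells, both from WT replicate 4, had only 3 and 5 heavy-chain UMIs. The clone of IGHV1-18 (chr12:114682632-114682925) and IGKV12-38 (chr6:69943186-69943648) held 2 unmutated switched cells of IGHG1, 2 mutated switched cells and 2 IgM cells, and 5 of the 6 had the same heavy CDR3, printed without capitals.
IGHV1-18/IGKV12-38, 1 unmutated, 2 mutated switched and 2 IgM cells: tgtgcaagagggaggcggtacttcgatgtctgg
IGHV1-18/IGKV12-38, 1 unmutated cell: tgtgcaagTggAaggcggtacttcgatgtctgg

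Of 6 clones tied at 3 unmutated switched cells, 5 were KO and 1 was WT, and 2 further KO clones of these are described. That of IGHV1-85 (chr12:116000028-116000321) and IGKV2-109 (chr6:68302439-68303158) held 3 unmutated switched, 2 mutated switched and 2 IgM cells with a single heavy CDR3. Of its 3 unmutated switched cells 2 had a germline light V and 1 carried C133T, C151T and C221A. That of IGHV1-53 (chr12:115158445-115158835) and IGKV1-110 (chr6:68270527-68271265) held 3 unmutated switched cells, all with a germline light V, 1 mutated switched cell and 1 IgM cell.

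The unmutated switched cells used 65 IGHV genes and 61 light V genes. The most used IGHV genes were IGHV1-9 with 21 cells, IGHV9-3 with 19, IGHV1-55 with 16 and IGHV1-12 with 13. IGHV1-53 and IGHV1-72 followed with 12 each, and IGHV1-18, IGHV1-26, IGHV1-64 and IGHV1-81 with 11 each. Of all unmutated switched cells 229 were KO and 95 WT. All 13 IGHV1-12 cells were KO, in 5 clones, and its mutated switched cells were 22 KO and 8 WT. IGHV1-55 had 15 KO and 1 WT cells, IGHV1-53 had 11 KO and 1 WT, and IGHV1-26 had 10 KO and 1 WT. Their mutated switched cells were, in that order, 57 KO and 39 WT, 25 KO and 32 WT, and 49 KO and 30 WT. The other way, IGHV1-18 had 2 KO and 9 WT cells, and IGHV1-78, named after its values were seen, had 0 KO and 7 WT. Mutated switched cells of IGHV1-18 were 11 KO and 25 WT, and those of IGHV1-78 were 8 KO and 14 WT. The 16 IGHV1-55 cells lay in 11 clones and the 7 IGHV1-78 cells in 5. These splits by genotype were not tested. As shares of the switched cells of a gene, 30.2% of IGHV1-12 and 23.4% of IGHV1-18 cells were unmutated, against 7.07% of IGHV1-9 and 5.12% of IGHV1-81 cells. These shares come from the rule itself, which set each IGHV against the commonest sequence of its gene. That sequence made up 57.0% of distinct pairs of V sequence and CDR3 for IGHV1-12 and for IGHV1-18. It made up 29.1% for IGHV1-9 and 46.4% for IGHV1-81, and its bearing on the shares was not tested.

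Gene use was tested between unmutated and mutated switched cells with edgeR's quasi-likelihood test on cells per gene, with the library as a block. The choice of cells used the IGHV sequence, so the test of IGHV genes is not independent of that choice. Of 60 IGHV genes tested, 0 passed at an adjusted p under 0.05 (0%), and 8 had an unadjusted p under 0.05. The smallest adjusted p was 0.207, shared by IGHV1-59, IGHV1-69 and IGHV1-18. IGHV1-18 had a log2 fold change of 1.53 (SE 0.60). IGHV1-59 had 1 unmutated and 47 mutated switched cells (log2 fold change -2.67, SE 1.03), and IGHV1-69 had 0 unmutated and 30 mutated switched cells. These 2 were named after their values were seen. IGHV1-12 had a log2 fold change of 1.23 (SE 0.61, edgeR adjusted p = 0.331) and IGHV1-81 one of -1.08 (SE 0.48, edgeR adjusted p = 0.26). Of 57 light V genes 0 passed (0%) with edgeR, 4 had an unadjusted p under 0.05, and the smallest adjusted p was 0.272. DESeq2 also called 0 in both, with 11 IGHV and 10 light V genes at an unadjusted p under 0.05. Counts at this size were also simulated, as independent Poisson draws from a single gene profile for all libraries, with increases only. Clones, genotype differences and decreases were not simulated, so recovery in the real counts may be lower. On the simulated counts the IGHV test recovered 9 of 10 genes changed 8-fold, 5 of 10 changed 4-fold and 0 of 10 changed 2-fold. The light V test recovered 10 of 10 changed 8-fold, 8 of 10 changed 4-fold and 4 of 10 changed 2-fold, with 2 unchanged genes called at 2-fold, so 2-fold changes of gene use would mostly be missed.

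The most used light V genes were IGKV1-117 with 19 cells, IGKV1-110 with 17 and IGKV8-21 with 14, and IGKV10-96, IGKV12-44 and IGKV14-111 with 12 each. The 14 IGKV8-21 cells were all KO, as were all 67 mutated switched cells of this gene, while among all paired cells it was used by 258 KO and 50 WT cells. Whether both genotypes carry the same kappa light-chain haplotype is not stated in the labels, so a genotype effect and a haplotype difference cannot be told apart for this gene. Within the named genes, a mutated light V segment was found in 52.6% of unmutated and 65.3% of mutated switched cells for IGKV1-117, and in 3.92% of unmutated IgM cells. For IGKV10-96 it was found in 83.3% of unmutated switched, 69.5% of mutated switched and 3.04% of unmutated IgM cells. For IGKV1-110 it was found in 35.3% of unmutated switched, 49.0% of mutated switched and 2.94% of unmutated IgM cells. All 6 named genes thus had more mutated light chains in unmutated switched cells than in unmutated IgM cells. Each of these light shares in unmutated switched cells rests on 12 to 19 cells.

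The J genes and the CDR3 length describe the heavy-chain junction. IGHJ2 was used by 32.5 ± 11.2% of unmutated and 31.9 ± 3.69% of mutated switched cells, and IGHJ3 by 20.6 ± 8.99% of unmutated and 26.7 ± 2.48% of mutated switched cells (SD, n = 8; not tested). IGHJ4 was used by 29.6 ± 8.94% of unmutated and 26.9 ± 3.30% of mutated switched cells, and IGHJ1 by 17.3 ± 7.40% of unmutated and 14.6 ± 2.12% of mutated switched cells. Heavy CDR3 length averaged 14.2 ± 0.64 residues in unmutated and 14.4 ± 0.23 in mutated switched cells (exact sign-flip p = 0.406). Lambda light chains made up 3.23 ± 2.48% of unmutated and 2.85 ± 0.85% of mutated switched cells (exact sign-flip p = 0.633).

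Markers of other B cells were checked on receptor genes only, since the tables hold no other transcripts. The V genes typical of B-1 cells (IGHV11-2, IGHV12-3 and IGHV7-1) were used by 0 of the 324 cells, which allows a share of up to 0.926%, by 1 of 2501 mutated switched cells and by 1.33% of unmutated IgM cells. None of the 324 stood in a clone with an IgD cell, but only 149 of the 40603 paired cells were IgD cells. A heavy-chain UMI count over 10 times the library median, set as the mark of plasma cells, was reached by 2 of the 324 cells, 30 of 2501 mutated switched cells and 58 of 28580 unmutated IgM cells.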

How the data were processed

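Paired B-cell receptor libraries of 8 mouse spleen samples (4 KO, 4 WT) were analysed. The submitters' processing notes name Cell Ranger, R 4.3.1 and mm10. Read and UMI counts per contig are whole numbers without normalization, as deposited per the file headers. The 1723 barcodes with 2 or more heavy contigs were dropped, and doublets were not searched for otherwise. Germlines were the commonest framework 1 to 3 sequences, available for 79 of 97 IGHV genes. Over the 65 IGHV genes of the cells described, they made up a median of 56.2% of distinct pairs of V sequence and CDR3 (range 19.4 to 83.0%). All 61 IGHV and 38 light V genes of these cells that had a germline in each genotype gave the same sequence. Shared mutations or alleles can be missed. Cells of a genotype with equal V genes, J genes and CDR3 length were joined into clones at a heavy CDR3 identity of at least 0.85 (single linkage).

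Library values were compared by exact two-sided permutation (70 assignments) or sign flips within libraries (256), called at p under 0.05. Benjamini-Hochberg values are over 15, 12, 8 and 12 measures. Cells per V gene were tested with edgeR 4.0.16 in R 4.3.3 (at least 10 cells; library size the number of cells), with DESeq2 1.42.0 as an alternative. The fit was tested on simulated data. Python 3.11.15, pandas 2.3.3 and SciPy 1.17.1 were used. Coordinates come from RefSeq's GRCm38.p6 table, which is mm10. The named genes are the constant and IGHJ genes, the 10 IGHV and 6 light V genes with most such cells, and the V genes of the 6 clones with most such cells and of 2 clones per genotype, those with most such cells among the clones that also hold IgM and mutated switched cells. Members, lists and tests were chosen with earlier results of these data known.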

Additional observations from a re-analysis of the deposited data

Results flagged for a closer look

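In 30 groups of 4 libraries, 3 had 1 library far from the other 3, and chance gives about 1 in 20 such groups. The unmutated share of IgG2b cells was 20% in KO replicate 4, against 13.0 to 13.7% in the other KO libraries. The median of heavy-chain UMIs in unmutated switched cells was 7 in WT replicate 1, against 18 to 20 in the other WT libraries. The share of unmutated switched cells with an IgM cell in their clone was 61.9% in WT replicate 4, against 25 to 28.6% in the other WT libraries. Without it, KO minus WT was 9.02 points (exact permutation p = 0.0286). Without KO replicate 4 the IgG2b difference was 5.75 points, with the same p.

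The share of cells in clones of 2 or more, unmutated minus mutated switched cells, was 6.99 ± 2.64 points in KO and -7.96 ± 12.8 points in WT (SD, n = 4 each). The difference between the genotypes was 14.9 points (exact permutation p = 0.0286, adjusted p = 0.343 over 12 measures). The lowest KO library was at 4.13 and the highest WT library at 4.02 points, and the difference did not pass the correction. It was 9.10 points without WT replicate 1, and without any 1 KO library its exact permutation p was 0.0571 or 0.114.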

How the results depend on the processing

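Differences below are KO minus WT in unmutated switched cells, or unmutated minus mutated switched cells, or unmutated switched minus unmutated IgM cells, in percentage points, UMIs, residues or log2 folds of gene use. The lower germline light V share and the higher light V mutation frequency and light-chain UMIs against unmutated IgM cells kept their direction and their call under every alternative run. The KO minus WT difference in the unmutated share of switched cells kept both in all but 1. That was the replicate block, which pairs libraries by a number they only share and whose p cannot go below 0.125. Same-numbered KO and WT libraries did not deviate together (correlations of V gene use deviations of -0.10, 0.02, -0.13 and 0.16 over 97 genes). Under the replicate block the differences were 8.98 for all switched cells, 9.12 for IgG1, 7.40 for IgG2b, 34.1 for the IGHG1 share and -22.2 for the IGHG2B share, all above the threshold. The cause of the changes listed here was not tested. Few cells per WT library limit every share.

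With cells of 20 to 40 heavy-chain UMIs, KO minus WT was 47.3 for the IGHG1 share and 8.65 for the IgG1 unmutated share, both no longer called, and turned for the IgG2b (-1.21) and IgG3 (-1.22) unmutated shares, CDR3 length (-0.051), clones of 2 or more cells (-9.88), clones with a mutated switched cell (-13.0) and clones with an IgM cell (-11.1). There, unmutated minus mutated switched cells was 3.39 for framework 4, no longer called, and turned for the germline light V share (-2.56), clones with an IgM cell (3.44), IGHV1-9 (0.13), IGHV1-64 (0.21) and IGKV10-96 (-0.088). Against unmutated IgM cells, framework 4 (-4.02) and clones of 2 or more cells (-10.4) lost the call, and CDR3 length turned (0.011). With at least 5 heavy-chain UMIs, KO minus WT lost the call for the IgG2b unmutated share (5.71) and turned for heavy UMIs (-2.38), clones with a mutated switched cell (-0.39) and with an IgM cell (-1.68). Unmutated minus mutated switched cells lost the call for IGHG3 (-5.41) and turned for light V mutation frequency (0.0043), heavy UMIs (2.19), clones of 2 or more cells (1.03), IGHV1-26 (0.10), IGHV1-64 (0.043) and IGKV8-21 (-0.0086).

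With 0 or 1 IGHV difference allowed, KO minus WT was newly called for IGHG3 (-13.2) and the germline light V share (17.3), and turned for light UMIs (2.62), clones with a mutated switched cell (-7.49) and with an IgM cell (-6.76). Unmutated minus mutated switched cells was newly called for IGHG1 (4.32), lost the call for IGHG3 (-2.89) and framework 4 (2.54), and turned for IGHG2B (-1.16), heavy UMIs (0.19), light UMIs (-2.25), clones with an IgM cell (0.11), IGHV1-55 (-0.12), IGHV1-72 (-0.11), IGHV1-26 (0.11) and IGKV10-96 (-0.090), with 3 IGHV genes and 1 light V gene called. TMM factors moved the median of all genes to -1.12 for IGHV and -0.67 for light V genes, against -0.15 and 0.16 in the main setting. TMM factors called 12 IGHV and 5 light V genes, all lower. They turned IGHV9-3 (-0.38), IGHV1-55 (-0.94), IGHV1-53 (-0.54), IGHV1-72 (-0.36), IGKV8-21 (-0.40), IGKV10-96 (-1.10) and IGKV12-44 (-0.17). DESeq2 moved the median the other way, to 0.44 for IGHV and 0.62 for light V genes, and turned IGHV1-55 (-0.011) and IGKV10-96 (-0.023).

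With each clone counted once, unmutated minus mutated switched cells was 0.88 for heavy UMIs, 4.26 for clones of 2 or more cells and 2.33 for clones with an IgM cell. Against unmutated IgM cells, the same setting gave -11.9 for heavy UMIs, no longer called, and 7.61 for clones of 2 or more cells. Clones by identical heavy CDR3 gave 6.63 for clones of 2 or more cells and 1.93 for clones with an IgM cell, and KO minus WT -2.99 for the last. Clones within a library gave KO minus WT -0.29 for a mutated switched and -2.03 for an IgM cell in the clone. Requiring a germline framework 4 gave KO minus WT -0.50 for heavy UMIs and -0.89 for clones with an IgM cell, and unmutated minus mutated switched cells -0.14 for lambda, 0.69 for heavy UMIs, 0.20 for clones of 2 or more cells and 0.0041 for IGHV1-26. Germlines from at least 50 CDR3 sequences gave 0.013 for light V mutation frequency and 0.81 for heavy UMIs, IGHG1 cells alone 0.25 for heavy UMIs, and cells with at least 1 light contig 0.0010 for light V mutation frequency and -0.044 for IGKV10-96.

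Leaving out 1 library at a time, KO minus WT ranged from -0.061 to 0.64 for CDR3 length, -0.92 to 3.42 for heavy UMIs, -18.8 to 5.54 for light UMIs, -0.24 to 7.27 and -3.29 to 9.02 for clones with a mutated switched and with an IgM cell, and 2.97 to 6.83 for the IgG3 unmutated share. Unmutated minus mutated switched cells ranged from -0.066 to 0.94 for lambda, -0.073 to 0.0069 for light V mutation frequency, -1.21 to 0.93 for heavy UMIs, -3.64 to 6.00 for light UMIs, -1.95 to 3.09 and -4.07 to 0.90 for clones of 2 or more cells and with an IgM cell, -0.31 to 0.034 for IGHV1-64, -0.24 to 0.067 for IGHV1-26, -0.19 to 0.38 for IGKV8-21 and -0.26 to 0.18 for IGKV10-96. Against unmutated IgM cells CDR3 length ranged from -0.38 to -0.072. The genotype difference in clones of 2 or more cells turned to -1.53 at 20 to 40 heavy-chain UMIs and lost the call at 13.7 with at least 1 light contig, 7.82 with identical heavy CDR3, 8.51 within a library, 13.5 with each clone counted once and 12.5 with a germline framework 4. It lost the call without any 1 KO library (14 to 15.9, exact permutation p from 0.0571 to 0.114), and was 9.10 without WT replicate 1 and up to 18.9 without another WT library.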
